A study of Mus musculus with 10 samples.

Results

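C-type lectin and mannose receptor genes were followed in spleen T cells and spleen type 2 conventional dendritic cells (cDC2s) of Cd47ΔT and Cd47f/f mice. The members were 10 genes taken by symbol, Cd209a, Mrc1, Mrc2, Ly75, Clec4a4, Clec4a2, Clec7a, Clec9a, Clec10a and Clec12a, out of 45706 genes in the expression table, and each symbol matched exactly 1 gene. Cd47ΔT mice lack Cd47 in T cells by the name of their genotype, and Cd47f/f mice, the controls, carry the floxed alleles that both genotypes share. RNA was sequenced from 3 cDC2 libraries of Cd47ΔT and 3 of Cd47f/f mice, and from 2 T cell libraries of each genotype. The labels used here name no Cre line, age, cell isolation or pooling of animals, so each p-value reflects library-to-library spread, possibly technical.

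C-type lectins are receptors whose carbohydrate recognition fold binds sugars, and in many of them calcium takes part in the binding. On dendritic cells and macrophages they capture glycans, microbes, collagen or dead cells for uptake. The tails of some activate the kinase SYK, as that of Clec7a does, and those of some others recruit phosphatases, as that of Clec4a2 does. In mouse spleen several of them mark subsets: Clec4a4 marks cDC2s, Clec9a and Ly75 mark the cross-presenting cDC1s, and Mrc1 marks macrophages.

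Expression was measured in TPM, a transcript level per length brought to a common library total, so levels can be compared between genes while depth is unknown. Each library had 11514 to 12594 genes at 1 TPM or more. Small noncoding genes took 26.2 to 30.4% of TPM in Cd47ΔT cDC2s, against 21.1 to 27.4% in Cd47f/f cDC2s. Their part in the results was not tested beyond a rescaling to protein-coding genes, given below. Cd47 read 40.4 and 51.7 TPM in Cd47ΔT T cells, against 138 and 233 TPM in Cd47f/f T cells, and 135 to 159 TPM in Cd47ΔT cDC2s, against 140.2 to 162 TPM in Cd47f/f cDC2s. Markers fitted the cDC2 label, with Sirpa at 307 to 493 TPM, Itgax at 352 to 447 TPM and Zbtb46 at 94.2 to 118 TPM across the 6 libraries, with Xcr1 (cDC1s), Cd3e (T cells) and Pax5 (B cells) under 1 TPM in each. Other genes of the cDC1 and B cell lists were high in the same libraries, with Wdfy4 at 824 to 1151 TPM, Batf3 at 121 to 147 TPM and Cd22 at 81.0 to 239 TPM. In T cell libraries Cd3e stood at 414 to 514 TPM. Kits differed between T cell and cDC2 libraries, so a level set across them cannot be told apart from the kit, while both genotypes of a cell type had the same kit.

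Near-identical copies bear on how far a level belongs to 1 gene. Clec4a4 and Clec4a2, a pair of DCIR-type receptors on chromosome 6 with Clec4b1 between them, share 85.7% of aligned coding bases, and 15.7% of the 50-base windows of the Clec4a4 transcript also occur in Clec4a2. The start of their coding sequences, which encodes the cytoplasmic end of each receptor, is shown because most of it is the same in both, with the 5 differing bases in capitals (GENCODE transcripts, GRCm38, coding bases 1 to 60).
Clec4a4: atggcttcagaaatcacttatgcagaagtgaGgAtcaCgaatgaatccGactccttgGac
Clec4a2: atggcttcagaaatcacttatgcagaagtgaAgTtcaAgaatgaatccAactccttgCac
How reads from such stretches were divided is the authors' step, so a small level of one beside a large level of the other is uncertain. Cd209a, the gene whose level changed in both cell types, shares no 50-base window with any other gene. Its most alike 60 coding bases with Cd209b, a neighbour on chromosome 8, still differ at 9 positions, in capitals below (coding bases 420 to 479 of Cd209a and 681 to 740 of Cd209b).
Cd209a: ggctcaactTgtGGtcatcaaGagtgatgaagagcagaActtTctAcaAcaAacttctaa
Cd209b: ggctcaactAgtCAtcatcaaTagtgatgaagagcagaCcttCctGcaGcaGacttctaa
Mrc1, Mrc2, Clec7a and Clec12a share no window either. For Clec10a the share is 10.6%, all with Mgl2, for Clec9a it is 4.19%, with the overlapping same-strand gene Clec1b, and for Ly75 it is 2.2%, with Gm13571 on the other strand. Whether counting used strand is not stated in the labels, so values of overlapping genes are uncertain.

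In cDC2s the lectin genes spanned a wide range, and Mrc2 and Cd209a held other places in the order of levels in each genotype. Clec4a4 stood first in both, at 119 ± 13 TPM in Cd47ΔT cDC2s and 133 ± 6.86 TPM in Cd47f/f cDC2s (mean ± SD, n = 3 each, as below). In Cd47ΔT cDC2s Clec7a followed at 92.9 ± 28.5 TPM, overlapping Clec4a4, then Mrc2 at 53.4 ± 12.5 TPM, clear of its neighbours on both sides, then Cd209a at 31.0 ± 6.48 TPM and Clec4a2 at 27.0 ± 8.85 TPM, which overlapped. In Cd47f/f cDC2s Cd209a stood second at 91.2 ± 10.1 TPM, followed by Clec7a at 69.6 ± 13.8 TPM and Clec4a2 at 36.4 ± 6.51 TPM, each clear of the next. The remaining genes lay between 2.46 and 12.1 TPM on average in Cd47ΔT cDC2s and between 3.5 and 9.27 TPM in Cd47f/f cDC2s, and each overlapped its neighbours in that order.

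**Figure D1:**
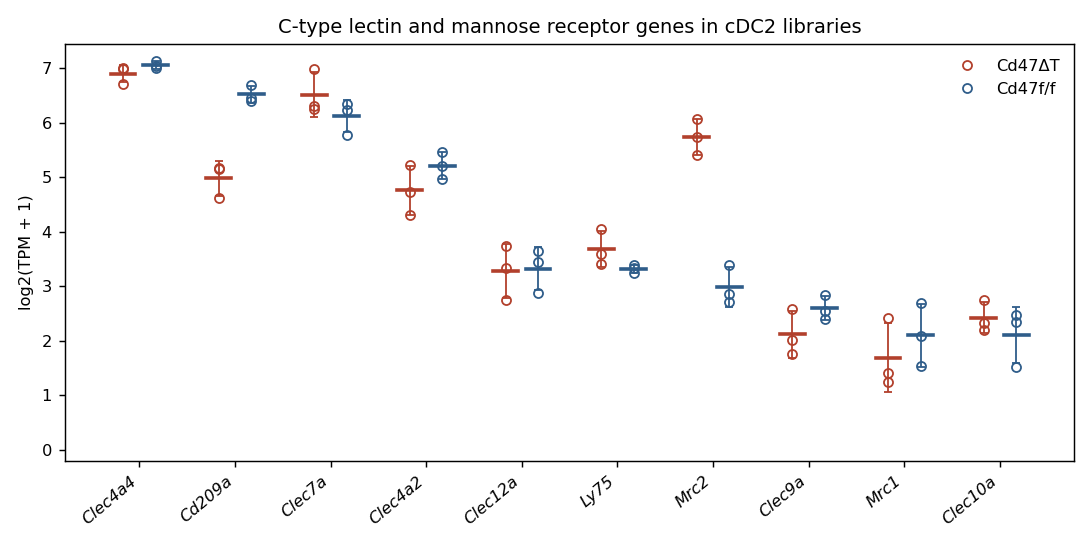
Level of each lectin gene, as log2(TPM + 1), in cDC2 libraries, with Cd47ΔT left and Cd47f/f right for each gene (open circles, 1 library each; thick lines, means; thin bars, SD; n = 3 per genotype). Mrc2 stands apart upward in Cd47ΔT cDC2s (53.4 against 7.11 TPM on average) and Cd209a downward (31.0 against 91.2 TPM), while the other genes lie close together.

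The genotype comparison in cDC2s asked how deletion of Cd47 in T cells bore on dendritic cells that kept it. Mrc2 rose and Cd209a fell in Cd47ΔT cDC2s, and the other 8 genes did not pass the test. Every one of the 10 genes passed the filter on low values (1 TPM or more in at least 3 of the 6 libraries), and the 1 called higher and 1 called lower stand beside 0.249% and 0.381% of the 12058 genes tested, 0.63% in either direction. The calls come from limma on log2(TPM + 1), with p-values adjusted by Benjamini-Hochberg over all genes tested and called under 0.05. Log2 fold changes, ± SE, put Cd47ΔT over Cd47f/f on that scale, which understates changes of low genes. The split of all calls, 30 higher and 46 lower, turned to 36 and 33 under median-of-ratios scaling and to 35 and 32 under scaling to protein-coding genes. Under the latter, Mrc2 (log2 fold change 2.81, limma adjusted p = 0.0127) and Cd209a (-1.48, adjusted p = 0.0249) stayed called.

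Mrc2, on chromosome 11 (105292643 to 105351139, plus strand, GRCm38), encodes Endo180, an endocytic receptor that binds and internalises collagen and is best known from fibroblasts. It read 41.3, 52.5 and 66.4 TPM in the Cd47ΔT cDC2 libraries, against 5.54, 9.53 and 6.27 TPM in the Cd47f/f cDC2 libraries. The lowest Cd47ΔT library stood far above the highest Cd47f/f library. The mean was 7.51-fold higher (log2 fold change 2.75 ± 0.24, limma adjusted p = 0.0120). In T cells Mrc2 was close to nothing, at 0.20 and 0.03 TPM in Cd47ΔT libraries, against 0.03 and 0 TPM in Cd47f/f libraries. Fibroblast genes stood near 0 beside it: Col1a1, Col1a2, Col3a1, Pdgfra and Dcn were under 1 TPM in all 6 cDC2 libraries. The 11 stroma and endothelium genes other than Mrc2 summed to 63.2 to 80.0 TPM in Cd47ΔT cDC2s, against 67.8 to 83.7 TPM in Cd47f/f cDC2s, nearly all of it Pecam1. The call ended without Cd47f/f library 1 (adjusted p = 0.0665), without Cd47ΔT library 1 (0.0730), 2 (0.0615) or 3 (0.0684) and with no filter on low values (0.0503; 0.00131 to 0.0730 over all 17 alternatives). The fold change kept its size, with log2 values of 2.26 to 2.95.

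Cd209a, on chromosome 8 (3743397 to 3748984, minus strand, GRCm38), encodes a mannose-type lectin related to human DC-SIGN. It read 34.7, 34.8 and 23.5 TPM in the Cd47ΔT cDC2 libraries, against 87.0, 83.9 and 102.8 TPM in the Cd47f/f cDC2 libraries. All Cd47ΔT libraries lay far below all Cd47f/f libraries, and the mean fell to 0.340 of that in Cd47f/f cDC2s (log2 fold change -1.54 ± 0.17, limma adjusted p = 0.0200). The call ended in each of the 6 fits that left out a library (adjusted p = 0.0570 to 0.0789), with no filter (0.0544), without the variance trend (0.0791) and with the replicate number as a block (0.0789; 0.00907 to 0.0791 over all 17 alternatives), while the log2 fold change stayed between -1.36 and -1.64. With any 1 cDC2 library left out, 0 to 14 genes of all tested were called. Of its relatives in the same chromosome 8 cluster, Cd209b read 0.46, 1.29 and 0.17 TPM in Cd47ΔT cDC2s, against 4.19, 2.80 and 3.07 TPM in Cd47f/f cDC2s, without overlap but past no threshold (log2 fold change -1.45 ± 0.35, limma adjusted p = 0.127). Cd209b was low and passed the filter through its Cd47f/f libraries. Cd209c overlapped, at 0, 3.11 and 0.38 TPM in Cd47ΔT cDC2s, against 2.10, 1.44 and 0.76 TPM in Cd47f/f cDC2s. Cd209d was above 0 only in Cd47ΔT library 1 (2.72 TPM). In bulk RNA, fewer cells of a type and less RNA per cell cannot be told apart.

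The receptors with inhibitory tails came next. Clec4a4, known as DCIR2, read 127, 127 and 104 TPM in Cd47ΔT cDC2s, against 130.5, 127 and 140.2 TPM in Cd47f/f cDC2s. The groups only just missed each other (126.7 TPM at the top of Cd47ΔT and 127.0 TPM at the bottom of Cd47f/f), and the difference did not pass (log2 fold change -0.16 ± 0.11, limma adjusted p = 0.593). Clec4a2, or DCIR, read 36.5, 25.6 and 18.9 TPM in Cd47ΔT cDC2s, against 43.2, 30.2 and 36.0 TPM in Cd47f/f cDC2s, with overlap (log2 fold change -0.45 ± 0.24, limma adjusted p = 0.480). Clec12a, an inhibitory receptor that senses uric acid crystals from dead cells, read 5.72, 12.3 and 9.10 TPM in Cd47ΔT cDC2s, against 11.5, 6.35 and 9.94 TPM in Cd47f/f cDC2s. Its log2 fold change was -0.0517 ± 0.31 (limma adjusted p = 0.966), and the sign turned under each of the 3 other scalings.

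Among the receptors that activate cells, Clec7a, the beta-glucan receptor Dectin-1, read 78.0, 75.1 and 126 TPM in Cd47ΔT cDC2s, against 74.3, 54.1 and 80.5 TPM in Cd47f/f cDC2s. Library 3 of Cd47ΔT carried the highest value, the other libraries overlapped, and the difference did not pass (log2 fold change 0.39 ± 0.23, limma adjusted p = 0.518). Clec9a, the receptor for actin exposed by dead cells and a cDC1 marker, was low, at 5.02, 3.03 and 2.38 TPM in Cd47ΔT cDC2s, against 6.20, 4.84 and 4.30 TPM in Cd47f/f cDC2s (log2 fold change -0.48 ± 0.29, limma adjusted p = 0.531).

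The endocytic receptors other than Mrc2 differed little between genotypes. Ly75, or DEC-205, which delivers antigen to processing compartments, read 9.57, 11.1 and 15.5 TPM in Cd47ΔT cDC2s, against 9.45, 9.06 and 8.43 TPM in Cd47f/f cDC2s. Every Cd47ΔT library was above every Cd47f/f library, the nearest by little, and the difference did not pass (log2 fold change 0.36 ± 0.21, limma adjusted p = 0.517). Mrc1, the macrophage mannose receptor, read 1.37, 4.36 and 1.65 TPM in Cd47ΔT cDC2s, against 5.43, 1.90 and 3.24 TPM in Cd47f/f cDC2s (log2 fold change -0.41 ± 0.43, limma adjusted p = 0.731). Clec10a, a receptor for galactose-type sugars, read 3.60, 4 and 5.73 TPM in Cd47ΔT cDC2s, against 1.88, 4.08 and 4.53 TPM in Cd47f/f cDC2s (log2 fold change 0.31 ± 0.32, limma adjusted p = 0.732). In all, 2 lectin genes were higher without overlap (Mrc2 and Ly75) and 2 were lower without overlap (Cd209a and Clec4a4), where the same held for 6.38% and 13.5% of all genes tested, 19.9% in all.

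Of 47 other C-type lectin genes, 15 passed the filter in cDC2s and none was called by limma (5 at an unadjusted p under 0.05), with a median log2 fold change of -0.16 against -0.0729 over all genes tested. The smallest p belonged to Clec2i, a ligand of killer lectin-like receptors, at 15.5, 21.2 and 18.8 TPM in Cd47ΔT cDC2s, against 30.8, 36.3 and 30.2 TPM in Cd47f/f cDC2s (log2 fold change -0.79 ± 0.16, adjusted p = 0.0888). Clec4a1, another DCIR-family gene, averaged 55.0 ± 4.37 TPM in Cd47ΔT cDC2s and 78.4 ± 9.76 TPM in Cd47f/f cDC2s (adjusted p = 0.137). Clec4n, or Dectin-2, averaged 12.0 ± 0.785 TPM in Cd47ΔT cDC2s and 7.89 ± 1.73 TPM in Cd47f/f cDC2s (adjusted p = 0.285).

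Of 26 genes of lectin signalling, 24 were tested in cDC2s and limma called none (8 at an unadjusted p under 0.05; median log2 fold change -0.15). Over all genes tested in cDC2s, 13.4% had an unadjusted p under 0.05. Card9, the adaptor below Dectin-1 and SYK, averaged 30.7 ± 2.84 TPM in Cd47ΔT cDC2s and 41.4 ± 1.86 TPM in Cd47f/f cDC2s (adjusted p = 0.188), and Inpp5d, a phosphatase on the inhibitory side, 191 ± 11.8 TPM in Cd47ΔT cDC2s and 249 ± 17.3 TPM in Cd47f/f cDC2s (adjusted p = 0.134). Of 16 cytokine, chemokine and early response genes, 9 were tested and 1 fell, with a median log2 fold change of -0.69 against -0.0729 over all genes tested. The list summed to 197 to 349.8 TPM in Cd47ΔT cDC2s, against 397 to 1054 TPM in Cd47f/f cDC2s, without overlap. Most of this sum was Il1b, at 128, 127 and 221 TPM in Cd47ΔT cDC2s, against 287, 307 and 870 TPM in Cd47f/f cDC2s. Il1b was not called (limma adjusted p = 0.190), and the sum speaks mainly for this gene. The gene that fell was Ccl3, a chemokine for monocytes and T cells, at 3.52, 5.88 and 4.09 TPM in Cd47ΔT cDC2s, against 11.5, 20.5 and 18.6 TPM in Cd47f/f cDC2s (log2 fold change -1.68, limma adjusted p = 0.0493). All 23 genes of antigen uptake, processing and presentation were tested and none was called by limma (6 at an unadjusted p under 0.05; median log2 fold change -0.18). Their sums did not overlap either, at 35602 to 36669 TPM in Cd47ΔT cDC2s, against 37835 to 47925 TPM in Cd47f/f cDC2s. Most of these sums came from Cd74, H2-Ab1, H2-Aa and H2-Eb1. Cd74 alone read 13034 to 13581 TPM in Cd47ΔT cDC2s, against 14216 to 18476 TPM in Cd47f/f cDC2s. Without overlap, 8 of the 23 genes were lower and 2 higher, beside 13.5% and 6.38% of all genes tested. Lamp1, among the higher, averaged 165 ± 13.9 TPM in Cd47ΔT cDC2s and 119 ± 8.46 TPM in Cd47f/f cDC2s (limma adjusted p = 0.106). The smallest p was that of Cybb, a subunit of the phagocyte oxidase, at 92.3 ± 0.612 TPM in Cd47ΔT cDC2s and 130.4 ± 8.43 TPM in Cd47f/f cDC2s (adjusted p = 0.0739).

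Subset and lineage markers were read beside these values, with the lectin genes left out of every list. Of 9 cDC2 markers, 2 fell in Cd47ΔT cDC2s, and the list summed to 987 to 1054 TPM in Cd47ΔT cDC2s, against 1250 to 1355 TPM in Cd47f/f cDC2s. They were Itgam, which encodes CD11b, at 21.5 ± 3.26 TPM in Cd47ΔT cDC2s and 72.9 ± 6.22 TPM in Cd47f/f cDC2s (log2 fold change -1.72, limma adjusted p = 0.0120), and Cd4, at 85.1 ± 6.83 TPM in Cd47ΔT cDC2s and 166 ± 19.0 TPM in Cd47f/f cDC2s (log2 fold change -0.96, limma adjusted p = 0.0203). Esam, which marks the Notch-dependent cDC2s that carry DCIR2, read 24.3 to 41.0 TPM in Cd47ΔT cDC2s, against 20.8 to 37.4 TPM in Cd47f/f cDC2s, with overlap. Of 9 Esam-high subset genes 1 was called lower (Cd4), and of 9 Esam-low subset genes none was called by limma (1 at an unadjusted p under 0.05). Of 8 pan-cDC genes none was called by limma either (4 at an unadjusted p under 0.05).

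Lists of other cell types also moved in cDC2s. The plasmacytoid dendritic cell list (10 genes) summed to 123 to 132 TPM in Cd47ΔT cDC2s, against 99.96 to 109 TPM in Cd47f/f cDC2s. The B cell list (10 genes) summed to 122 to 170 TPM in Cd47ΔT cDC2s, against 221 to 274 TPM in Cd47f/f cDC2s, most of it Cd22, with Cd79a, Pax5 and Ebf1 under 1 TPM in all 6 libraries. The median log2 fold change of its 5 tested genes was 0.25, and Ms4a1 and Blk were higher without overlap, each at 10.2 TPM on average in Cd47ΔT cDC2s, against 7.71 and 7.91 TPM in Cd47f/f cDC2s. The plasma cell list (8 genes) summed to 83.4 to 108 TPM in Cd47ΔT cDC2s, against 119 to 128 TPM in Cd47f/f cDC2s, with Sdc1, Mzb1 and Tnfrsf17 under 1 TPM. Xbp1 and Irf4, the latter also on the cDC2 list, made up most of it. Xbp1 averaged 50.6 TPM in Cd47ΔT cDC2s and 59.3 TPM in Cd47f/f cDC2s, and Irf4 41.1 and 53.4 TPM. The neutrophil list (11 genes) summed to 30.1 to 48.6 TPM in Cd47ΔT cDC2s, against 51.0 to 73.3 TPM in Cd47f/f cDC2s, with S100a8, S100a9 and Ly6g at 0. Most of this sum was Mmp9, at 30.8 TPM on average in Cd47ΔT cDC2s and 57.4 TPM in Cd47f/f cDC2s, while Ltf went the other way, at 2.68 TPM in Cd47ΔT cDC2s and 0.27 TPM in Cd47f/f cDC2s. Sums overlapped between genotypes for the cDC1, monocyte, red pulp macrophage, T cell, NK cell, erythroid and stroma lists. Apart from Car2 in the erythroid list, which was higher, limma called no gene in any of these 11 lists (at an unadjusted p under 0.05, 1 to 3 genes in each of 8 lists, 0 in the T cell, NK cell and stroma lists). The part of these differences in the Cd209a and Mrc2 values was not tested.

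Likeness was measured over the 6 cDC2 libraries as the root-mean-square difference of log2(TPM + 1) after centring each gene on its mean, among 8614 named protein-coding genes at a mean of 5 TPM or more. Nearest to Cd209a were Itgam (0.13), Skint3 (0.15) and Ifit1bl1 (0.16), all lower in Cd47ΔT cDC2s, at 21.5, 8.39 and 9.12 TPM on average, against 72.9, 23.5 and 28.6 TPM in Cd47f/f cDC2s. Nearest to Mrc2, at larger distances, were Pcp4 (0.45), Aldh1a2 (0.47) and Bmp2 (0.49), at 10.01, 19.5 and 22.2 TPM on average in Cd47ΔT cDC2s, against 0.94, 4.19 and 4.78 TPM in Cd47f/f cDC2s. For Clec4a2, the member with the third smallest p, they were Zswim4 (0.0961), Imp4 (0.0987) and Snx16 (0.11). Genotype is shared by all of these comparisons, and with 6 libraries many genes lie close.

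In T cells most of the same genes were barely present in Cd47f/f libraries and stood at a few TPM in Cd47ΔT libraries. Cd209a read 6.12 and 9.52 TPM in Cd47ΔT T cells, against 0.47 and 1.09 TPM in Cd47f/f T cells (log2 fold change 2.30 ± 0.30, limma adjusted p = 0.0108). Clec7a read 5.06 and 8.32 TPM in Cd47ΔT T cells, against 0.42 and 0.91 TPM in Cd47f/f T cells (2.19 ± 0.30, adjusted p = 0.0118). Clec12a read 5.17 and 8.41 TPM in Cd47ΔT T cells, against 0.49 and 0.98 TPM in Cd47f/f T cells (2.15 ± 0.30, adjusted p = 0.0118). In each of these the groups were well apart, and Cd47ΔT library 2 was the higher of its pair, as Cd47f/f library 2 was of its own.

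Mrc1, Clec4a2 and Clec9a followed the same pattern. Mrc1 read 4.85 and 7.03 TPM in Cd47ΔT T cells, against 0.41 and 0.94 TPM in Cd47f/f T cells (log2 fold change 2.05 ± 0.28, limma adjusted p = 0.0118). Clec4a2 read 3.13 and 5.08 TPM in Cd47ΔT T cells, against 0.31 and 0.39 TPM in Cd47f/f T cells (1.89 ± 0.27, adjusted p = 0.0128). Clec9a read 2.80 and 3.41 TPM in Cd47ΔT T cells, against 0.27 and 0.62 TPM in Cd47f/f T cells (1.51 ± 0.25, adjusted p = 0.0179). Clec10a, at 2.38 and 3.35 TPM in Cd47ΔT T cells, against 1.45 and 0.44 TPM in Cd47f/f T cells, did not pass (1.03 ± 0.32, adjusted p = 0.119).

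**Figure D2:**
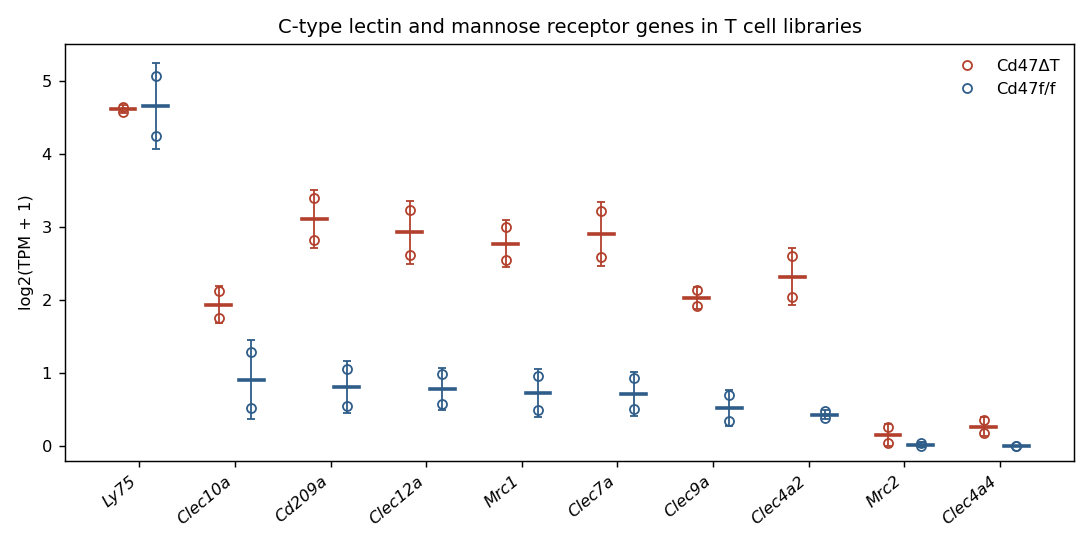
Level of each lectin gene, as log2(TPM + 1), in T cell libraries, with Cd47ΔT left and Cd47f/f right for each gene (open circles, 1 library each; thick lines, means; thin bars, SD; n = 2 per genotype). Ly75 is the only gene at a high level in both genotypes, and Clec4a4 and Mrc2 lie near the bottom in both, with Clec4a4 at 0.28 TPM or less in every library.

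Ly75 and Clec4a4 went against this pattern, in opposite ways. Ly75, which lymphocytes also express, was the highest of the 10 genes in T cells and did not pass, at 22.9 and 24.2 TPM in Cd47ΔT T cells, against 18.0 and 32.8 TPM in Cd47f/f T cells (log2 fold change -0.0464 ± 0.28, limma adjusted p = 0.963, its sign turning without Cd47f/f library 2). Clec4a4, the highest of them in cDC2s, read only 0.13 and 0.28 TPM in Cd47ΔT T cells and was listed at 0 in both Cd47f/f T cell libraries. On average Clec4a4 in Cd47ΔT T cells stood at 0.172% and Mrc2 at 0.215% of the level in Cd47ΔT cDC2s, whereas Cd209a stood at 25.2%, Clec4a2 at 15.2% and Clec7a at 7.2% of theirs. Clec10a stood at 64.5%, Clec12a at 75.1% and Clec9a at 89.3%, and Ly75 (195%) and Mrc1 (241%) exceeded their cDC2 level. In Cd47f/f T cells the same shares of the Cd47f/f cDC2 level were 0% for Clec4a4, 0.211% for Mrc2, 0.855% for Cd209a, 0.960% for Clec4a2, 0.955% for Clec7a, 7.93% for Clec12a, 8.70% for Clec9a, 19.2% for Mrc1, 27.0% for Clec10a and 283% for Ly75. These shares run across 2 kits and are a description.

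Of the 10 genes, 8 passed the filter in T cells (1 TPM or more in at least 2 of the 4 libraries), 6 of them were called higher and none lower by limma (7 at an unadjusted p under 0.05, as held for 21.6% of all genes tested), beside 8.5% of the 12453 genes tested called higher and 0.875% called lower, 9.37% in all. The genotypes did not overlap for 7 of the 8, each higher in Cd47ΔT T cells, as held for 37% of all genes tested (48.9% in either direction). Mrc2 and Clec4a4 were too low to be tested. Of the 6 called genes, 5 reached 1 TPM in the Cd47ΔT libraries alone. Cd209a reached it in both Cd47ΔT libraries but in only 1 Cd47f/f library, short of the 2 the filter needs. The filter thus favoured genes that differ in this direction, and the count supports nothing by itself. Quantile scaling turned the split of all calls, 1058 higher and 109 lower, to 655 and 336. With no filter limma called none of the 6 (adjusted p = 0.0819 to 0.0872), and without Cd47f/f library 1 the calls of Clec4a2 (0.0605), Clec7a (0.0526), Clec9a (0.0678) and Clec12a (0.0526) ended, leaving 2.

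The T cell libraries of Cd47ΔT mice also carried more of the genes listed for other cell types. In the lists from here on, the filter could favour genes higher in Cd47ΔT T cells, so counts of risen genes support nothing by themselves. All 12 tested genes of a 14-gene red pulp macrophage list rose, with the list summing to 193 and 304 TPM in Cd47ΔT T cells, against 26.5 and 34.2 TPM in Cd47f/f T cells. C1qb, a complement gene of macrophages, averaged 37.1 ± 14.6 TPM in Cd47ΔT T cells and 3.03 ± 0.0283 TPM in Cd47f/f T cells (n = 2 each; log2 fold change 3.18, limma adjusted p = 0.00455). Monocyte genes rose in 9 of 11 tested (sums of 2049.7 and 2281 TPM in Cd47ΔT T cells, against 665 and 864 TPM in Cd47f/f T cells, mostly Ly6c2, which T cells also express). B cell genes rose in 6 of 7 tested (66.5 and 145 TPM in Cd47ΔT T cells, against 17.5 and 21.5 TPM in Cd47f/f T cells), plasma cell genes in 7 of 8 (422 and 459 TPM in Cd47ΔT T cells, against 101 and 118 TPM in Cd47f/f T cells) and neutrophil genes in 3 of 5 (28.6 and 93.1 TPM in Cd47ΔT T cells, against 2.31 and 5.76 TPM in Cd47f/f T cells). NK cell genes rose in 6 of 10 (1334 and 1544 TPM in Cd47ΔT T cells, against 644 and 761 TPM in Cd47f/f T cells). Most of the NK cell sum was Nkg7, at 834 and 848 TPM in Cd47ΔT T cells and already at 371 and 421 TPM in Cd47f/f T cells. Erythroid genes rose in 4 of 6 (92.3 and 182 TPM in Cd47ΔT T cells, against 39.3 and 28.4 TPM in Cd47f/f T cells).

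Dendritic cell markers moved unevenly in the same libraries. The cDC1 list rose in 4 of 7 tested genes, with sums of 83.6 and 116 TPM in Cd47ΔT T cells, against 39.0 and 54.9 TPM in Cd47f/f T cells. Wdfy4, a cross-presentation gene, averaged 5.17 TPM in Cd47ΔT T cells and 0.33 TPM in Cd47f/f T cells, and Batf3, a transcription factor that cDC1s require, averaged 2.70 TPM in Cd47ΔT T cells and 0.27 TPM in Cd47f/f T cells. Xcr1, which defines cDC1s, read 0.42 TPM in both Cd47ΔT libraries, against 0.13 and 0.24 TPM in the Cd47f/f libraries, too low to be tested. The plasmacytoid list rose in 5 of 10 (255 and 319.6 TPM in Cd47ΔT T cells, against 190.1 and 195 TPM in Cd47f/f T cells), Siglech among them. The largest part of its sum was Bst2, at 148 and 151 TPM in Cd47ΔT T cells and at 110 and 97.8 TPM in Cd47f/f T cells. Of 7 tested cDC2 markers 3 rose (Sirpa, Irf4 and Itgam) and 1 fell (Cd4). The list summed to 257 and 229 TPM in Cd47ΔT T cells, against 318 and 353 TPM in Cd47f/f T cells. Cd4 and Dtx1, both high in the T cell libraries of either genotype, made up most of this sum. Cd4 read 108 and 60.2 TPM in Cd47ΔT T cells, against 170 and 190 TPM in Cd47f/f T cells. Dtx1 read 102.5 and 102 TPM in Cd47ΔT T cells, against 132 and 138 TPM in Cd47f/f T cells. Sirpa, shared by cDC2s and macrophages, read 15.6 and 28.3 TPM in Cd47ΔT T cells, against 1.91 and 2.78 TPM in Cd47f/f T cells. Esam, like Clec4a4, stayed under 1 TPM in all 4 libraries. The pan-cDC list rose in 3 and fell in 1 of 7, the Esam-high list rose in 2 and fell in 1 of 8, and the Esam-low list rose in 7 of 8. The pan-cDC gene that fell was Ccr7, at 286 and 285 TPM in Cd47ΔT T cells, against 435 and 398 TPM in Cd47f/f T cells. The Esam-high gene that fell was Cd4. T cell markers rose in 1 of 12, and the stroma list had 1 tested gene, which was not called. The part of other cells in the lectin values of T cell libraries was not tested.

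Other lectin-related genes in T cells rose alongside. Of 15 other C-type lectin genes tested, 6 rose and none fell (median log2 fold change 1.01, against 0.10 over all genes tested). Among those that rose, Clec4a3, Cd302 and Cd209d reached 1 TPM in the Cd47ΔT libraries alone. The filter thus favoured this direction, and the count and median support nothing by themselves. Clec4a3, an inhibitory DCIR relative, read 9.19 and 13.5 TPM in Cd47ΔT T cells, against 0.60 and 0.94 TPM in Cd47f/f T cells, and Clec4a1 read 5.41 and 10.7 TPM in Cd47ΔT T cells, against 0.53 and 1.03 TPM in Cd47f/f T cells. Lectin signalling genes rose in 9 of 25, including the activating adaptors Tyrobp (162 TPM on average in Cd47ΔT T cells, against 17 TPM in Cd47f/f T cells) and Fcer1g (81.8 TPM in Cd47ΔT T cells, against 9.23 TPM in Cd47f/f T cells). Response genes rose in 3 of 7 and uptake and presentation genes in 10 of 23, with none lower.

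Whether the genotype effect of a gene differed between T cells and cDC2s was tested with an interaction term on all 10 libraries, for the 10650 genes past the filter in each cell type. Of 8 lectin genes tested, 6 differed and each had the higher effect in T cells, beside 5.7% of all genes differing and 5.4% in this direction (575 higher and 32 lower in T cells, turning to 299 and 81 under quantile scaling). Of these 6 genes, 5 reached 1 TPM in T cells in the Cd47ΔT libraries alone, and Cd209a in only 1 Cd47f/f library besides. The filter favoured this direction here too, and the count supports nothing by itself. Cd209a differed most, by 3.85 ± 0.35 on the log2 scale (2.30 in T cells minus -1.54 in cDC2s, limma adjusted p = 0.000125), and it stayed under 0.05 in all 20 alternatives (6.52e-05 to 0.00181). Clec4a2 differed by 2.35 ± 0.40 (adjusted p = 0.00439), Clec12a by 2.20 ± 0.49 (0.0192), Clec9a by 1.99 ± 0.43 (0.0173) and Clec7a by 1.80 ± 0.39 (0.0188). The call ended in 1 of 19 alternatives for Clec4a2 (adjusted p up to 0.0593), in 5 of 20 for Clec12a (up to 0.128), in 4 of 19 for Clec9a (up to 0.112) and in 5 of 20 for Clec7a (up to 0.377). Without Cd47f/f T cell library 1 it ended for Clec12a, Clec9a and Clec7a (0.124, 0.101 and 0.124), without Cd47ΔT T cell library 2 for the same 3 genes (0.128, 0.112 and 0.116), and without Cd47ΔT T cell library 1 for Clec9a (0.0616). Mrc1 differed by 2.46 ± 0.59 (0.0318), a call that ended in 13 of 19 alternatives (0.0110 to 0.180 over all). Ly75 (-0.41 ± 0.36, adjusted p = 0.707) and Clec10a (0.72 ± 0.51, adjusted p = 0.603) did not differ past the threshold. Mrc2 and Clec4a4, too low in T cells for the filter, entered this test only with no filter. There Mrc2 had the lower effect in T cells (-2.62 ± 0.40, limma adjusted p = 0.00972), and Clec4a4 did not pass (0.42 ± 0.21, adjusted p = 0.427). Both genes read 0.28 TPM or less in every T cell library, where log2(TPM + 1) holds any effect near 0. The T cell effect of Mrc2 was 0.13 there, so its interaction value restates the rise in cDC2s. By ratio of means, Mrc2 was 7.67-fold higher in T cells and 7.51-fold higher in cDC2s.

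**Figure D3:**
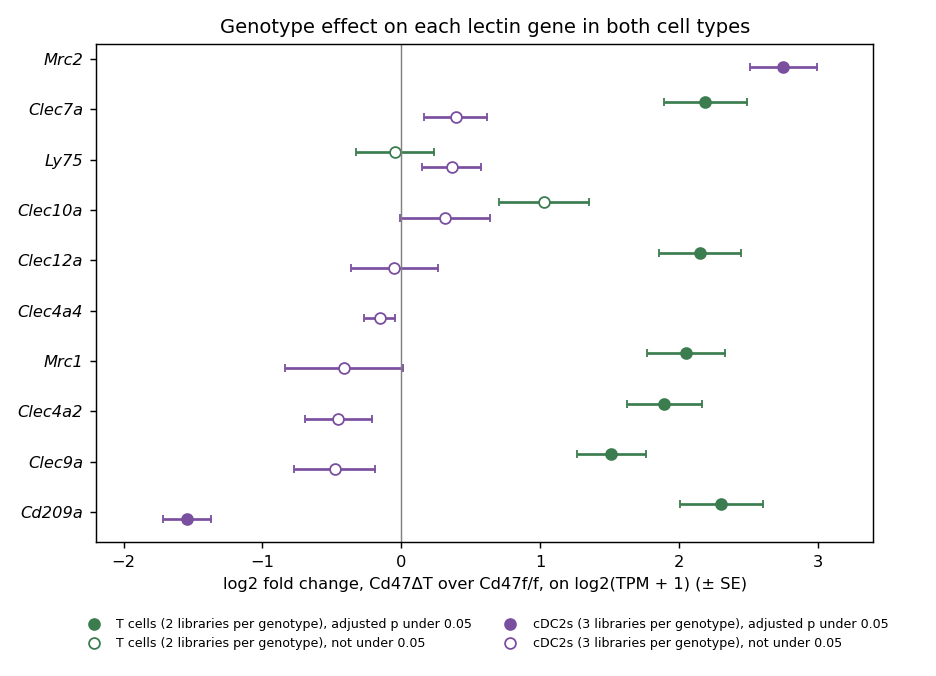
Log2 fold change (Cd47ΔT over Cd47f/f, ± SE, on log2(TPM + 1)) of each lectin gene in T cells (green, upper) and cDC2s (purple, lower), with filled circles for limma adjusted p under 0.05. Cd209a is the only gene called in both cell types, at 2.30 in T cells and -1.54 in cDC2s, and Mrc2 and Clec4a4 have no T cell value.

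The make-up of the lectin transcripts shifted in cDC2s while their sum did not. The 10 genes together came to 342, 350 and 373 TPM in Cd47ΔT cDC2s, against 375, 331 and 396 TPM in Cd47f/f cDC2s, with overlap. Mrc2 took 12.1%, 15% and 17.8% of that sum in Cd47ΔT cDC2s, against 1.48%, 2.88% and 1.58% in Cd47f/f cDC2s. Cd209a took 10.1%, 9.97% and 6.31% in Cd47ΔT cDC2s, against 23.2%, 25.3% and 25.9% in Cd47f/f cDC2s. In T cells the sum was 52.7 and 69.7 TPM in Cd47ΔT libraries, against 21.9 and 38.2 TPM in Cd47f/f libraries, and Ly75 took 43.4% and 34.8% of it in Cd47ΔT libraries, against 82.4% and 85.9% in Cd47f/f libraries.

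**Figure D4:**
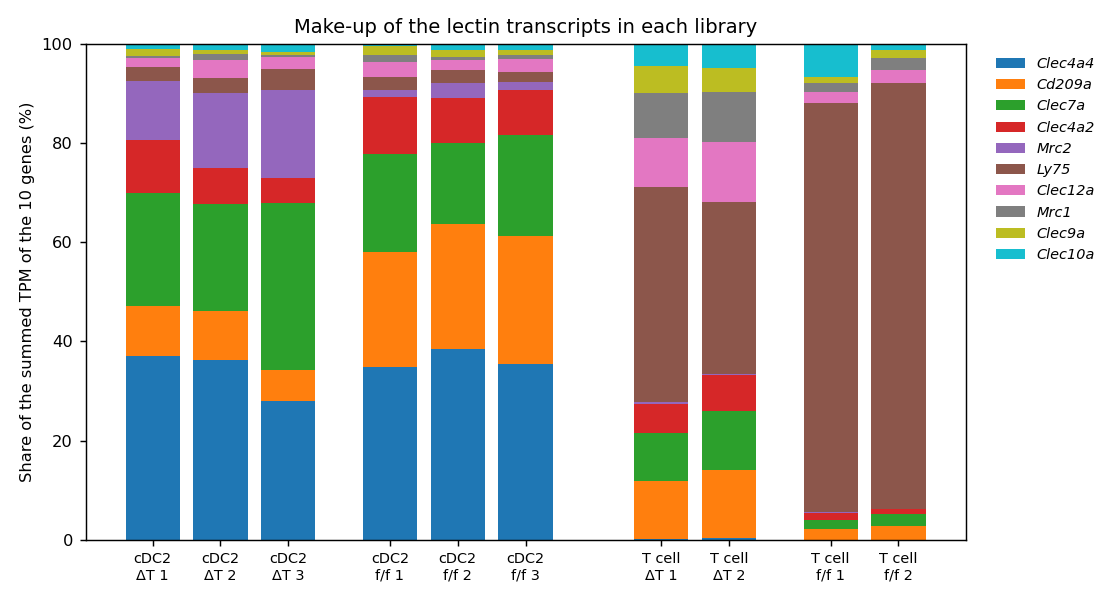
Share of the summed TPM of the 10 lectin genes taken by each gene (%), in every library, with Cd47ΔT left of Cd47f/f for cDC2s and then for T cells. Mrc2 (purple) widens and Cd209a (orange) narrows in Cd47ΔT cDC2s, and Ly75 (brown) fills most of the Cd47f/f T cell bars.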

How the data were processed

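Groups follow the labelled cell type and genotype. T cell libraries came from RNeasy mini extracts through TruSeq stranded mRNA preparation, while cDC2 libraries came from RNeasy micro extracts through SMART-seq stranded preparation, per the labels' protocols. The deposited values are TPM made by the authors, and the submitters' processing notes name STAR, RSEM, DESeq2 (no versions) and GRCm38. TPM keep no depth, so counting error has no interval here. GENCODE matching found 45143 identifiers (98.8%) in release M21, the source of symbols, positions and transcripts, and missed 563.

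Testing required 1 TPM in 3 or more cDC2 libraries, or in 2 or more T cell libraries, and was run on log2(TPM + 1) with limma 3.58.1 (eBayes with a variance trend, genotype as the only term) in R 4.3.3, and called at a Benjamini-Hochberg adjusted p under 0.05. The limma genotype fit within each cell type was run on simulated data with known changes. The interaction, the filter, the scalings and the sequence steps were not tested in this way. Shared windows and identity were computed with Python 3.11.15 and Biopython 1.88. The 10 genes and all lists were chosen with earlier results of these data known. Named genes were the 10 members, up to 4 genes of each list with the smallest p, and, for the 3 members with the smallest p in cDC2s, the 3 nearest genes. Alternatives were pseudocounts of 0.1 and 5, no filter or one of 5 TPM, 3 other scalings, no or a robust trend, fitting both cell types together, a block for replicate number, and leaving out each library.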

Additional observations from a re-analysis of the deposited data

Results flagged for a closer look

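For 6 lectin genes the genotype effect in T cells differed from that in cDC2s in limma's interaction test over all genes, given here as the T cell effect minus the cDC2 effect on the log2 scale. The values were 3.85 for Cd209a, 2.46 for Mrc1, 2.35 for Clec4a2, 2.20 for Clec12a, 1.99 for Clec9a and 1.80 for Clec7a. Cd209a was called in opposite directions in the 2 cell types, higher in all Cd47ΔT T cell libraries and lower in all Cd47ΔT cDC2 libraries. The other 5 reached 1 TPM in T cells in the Cd47ΔT libraries alone. Cd209a reached it in only 1 Cd47f/f T cell library, too few to pass without the Cd47ΔT libraries. The filter on low values thus favoured the direction of the difference for all 6. For the 5 genes other than Cd209a the cDC2 effect was between -0.48 and 0.39 and past no threshold. Groups of 2 or 3 libraries are too small for a test of single outlying libraries.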

How the results depend on the processing

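Over all genes, calls in cDC2s numbered 76, against 6 with no filter, 12 without the variance trend, 171 in 1 fit of all libraries, 4 with the replicate block and 0 to 14 without single libraries. Called lectin genes in cDC2s numbered 2, against 0 with no filter, 1 without the variance trend, 1 with the replicate block and 0 to 1 without single libraries. The fits without a library hold fewer samples. In T cells 1167 genes were called, against 758 with the 5 TPM filter, 15 with no filter, 2296 with the replicate block and 725 to 1568 without single libraries. Called lectin genes in T cells numbered 6, against 3 with the 5 TPM filter, where fewer genes are tested, 0 with no filter and 2 to 6 without single libraries. In the interaction 607 genes were called, against 395 with the 5 TPM filter, 380 under quantile scaling and 302 to 607 without single libraries. Called lectin genes there numbered 6, against 3 with a pseudocount of 5, 3 with the 5 TPM filter, 2 under quantile scaling and 2 to 6 without single libraries. With no filter, the interaction calls of Mrc1 (limma adjusted p = 0.0706), Clec12a (0.0553) and Clec7a (0.0508) ended. Mrc2, barely present in T cells, was then called lower. Where no construction is named, the cause was not tested.

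Signs turned for Clec12a in cDC2s (0.0215 under median-of-ratios, 0.00651 under quantile and 0.00827 under protein-coding scaling, and -0.28 to 0.21 without single libraries), and without Cd47f/f T cell library 2 for Ly75 in T cells (-0.46 to 0.37 without single libraries) and in the interaction (-0.82 to 0.00559). Every other lectin gene kept its direction under every alternative run. Quantile scaling lowered the median of all genes by 0.18 in T cells and by 0.23 in the interaction, and median-of-ratios scaling lowered the interaction median by 0.17. Relative to that median, the tested lectin genes in T cells stood at 1.87 as deposited and at 1.59 under quantile scaling. The filter favoured genes higher in Cd47ΔT T cells, so the height of this lectin median supports nothing by itself under either scaling. Same-numbered libraries did not deviate together in cDC2s (r = -0.0440, 0.0590 and 0.119 across genes) and in T cells, where 2 libraries a group give a single value (r = 0.19), pairing could not be judged, so the numbers were not taken as pairs. With the replicate block Clec10a in T cells was also called (adjusted p = 0.00157).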

Other observations

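Cd209d, a relative of Cd209a in the same chromosome 8 cluster, was listed at 0 in 5 of the 6 cDC2 libraries and read 2.72 TPM in Cd47ΔT cDC2 library 1. In T cells it read 3.14 and 4.76 TPM in Cd47ΔT libraries, against 0.23 and 0.77 TPM in Cd47f/f libraries. Cd209b went the other way round between cell types, at 0.05 TPM or less in every T cell library and at 2.80 to 4.19 TPM in Cd47f/f cDC2s. In Cd47ΔT cDC2s it read only 0.17 to 1.29 TPM, and levels set across the cell types run across 2 kits. Clec2d, chosen for mention after its values were seen, averaged 263 TPM in Cd47ΔT cDC2s and 228 TPM in Cd47f/f cDC2s.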
